A study of Homo sapiens with 54 samples.

Results

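ATF4 is the transcription factor that cells make when translation is held back by phosphorylated eIF2, for example during amino acid shortage, stress in the endoplasmic reticulum or mitochondrial stress. It switches on enzymes that make asparagine, serine, glycine and proline, membrane carriers that bring amino acids into the cell, and regulators that damp the response or lead to cell death. Such genes are followed in colorectal cancer because tumour cells depend on amino acid supply for growth. Here 37 such genes were taken by symbol from the 59368 genes of the deposited expression tables, and all 37 were found. They fall into 7 transcription factors (ATF4, ATF3, DDIT3, CEBPB, CEBPG, JDP2 and NUPR1), 5 signalling and feedback genes (TRIB3, DDIT4, SESN2, EIF4EBP1 and CHAC1), 13 enzymes (ASNS, PHGDH, PSAT1, PSPH, SHMT2, MTHFD2, ALDH1L2, PYCR1, ALDH18A1, GPT2, PCK2, CTH and CBS), 7 amino acid carriers (SLC7A11, SLC7A5, SLC3A2, SLC7A1, SLC1A5, SLC1A4 and SLC38A2) and 5 others (XPOT, ADM2, INHBE, STC2 and VLDLR). No measured value enters the rule that lists them, but the list was drawn up with earlier results of these data known.

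The RNA-seq libraries came from established lines of human colorectal carcinoma (HT-29, DLD-1 and HCT-116), which are epithelial in origin. Each line was studied as sensitive cells and as cells kept for months in rising 5-fluorouracil (5-FU), an analogue of uracil that inhibits thymidylate synthase and enters RNA and DNA. For 24 h both forms were given uracil (10 µM, the control) or 5-FU at the same dose, the latter with or without irradiation. The study maintained its resistant cells in 5-FU at a higher dose than 10 µM. The study set the radiation dose for each line from that line's own sensitivity, so the dose differed between lines. The 18 conditions had 3 libraries each and 54 in all. Nothing in the labels says that a line was selected for resistance more than once, so resistance rests on 1 resistant form per line. The study calls its replicates biological, but the labels only number them, so the p-values measure the spread between these libraries.

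Total estimated counts per library lay between 38957142 and 218518344, with a median of 51373543. The deepest library was sensitive DLD-1 under uracil, replicate 2, and the next deepest held 86673615. All 8 epithelial markers were in the table. Of these, 5 reached 1 TPM (a transcript level corrected for transcript length and depth) in every library. The 8 together summed to 2352 TPM or more in every library. The leukocyte, fibroblast and endothelial lists summed to at most 23.6, 31.3 and 5.43 TPM. One label goes against the data. Under uracil, libraries labelled resistant HT-29 averaged 1 TPM or more for 44 of 46 genes that mark HCT-116. For genes that mark HT-29 this held for 0 of 5. Resistant HCT-116 libraries did so for 44 of 46 and resistant DLD-1 libraries for 16 of 17 of their own markers. Libraries under 5-FU, irradiated or not, were not checked in this way. All libraries with that HT-29 label are called labelled resistant HT-29 below, and are compared with HCT-116 as well as with sensitive HT-29. In resistant DLD-1, uracil replicate 1 stood apart from the other two in many members, with 205 TPM of ASNS against 135 and 135.

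In these bulk samples fewer cells making a transcript and less transcript per cell cannot be told apart. Most members were well measured. Of the 37, 29 reached 1 TPM in all 54 libraries, and 3 (CBS, ALDH1L2 and INHBE) stayed under 1 TPM on average in every condition. A gene was counted as called when its p in edgeR's quasi-likelihood test, adjusted by Benjamini-Hochberg, was 0.01 or less and the change was at least 2-fold. Fold changes are on the log2 scale of that fit, with standard errors (SE), and can differ from ratios of TPM because the fit rescales libraries on the bulk of genes.

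Many ATF4 targets carry a C/EBP-ATF response element, a composite site that ATF4 binds with a C/EBP partner. The letters TGATGNAA were searched on both strands in RefSeq promoter windows of 300 bases (250 before and 50 after each start, GRCh38.p14), which covered 28 of the 37 members. They were present for 9 of these 28 genes (32.1%), in 9 of 45 windows (20%), against 1217 of 27305 genes (4.46%) and 1270 of 35116 windows (3.62%) overall. The members were listed as ATF4 response genes, a choice that favours this outcome, and shares by gene also depend on the windows per gene. The letters TGACGTCA, the palindromic cyclic AMP response element, which shares no full match with the first motif, were in 0 of 45 member windows and in 1.85% of all windows. The 9 genes were ASNS, CHAC1, ATF3, JDP2, CEBPG, SLC1A5, SLC1A4, SLC3A2 and SLC7A1. The stretches around the motif are shown for the 6 genes whose motif lies wholly in the 250 bases before the start. This was not so for SLC1A4, SLC3A2 and SLC7A1. The stretches run 5′ to 3′ on the gene's strand, with the motif in capitals. Among these 6 genes, ASNS was called lower under 5-FU in all 3 sensitive lines, and CHAC1, SLC1A5 and JDP2 in DLD-1 alone. ATF3 was called higher in HT-29 alone, and CEBPG was not called in any of these lines. Counted from the start of the RefSeq window, which is 1 of several possible starts of a gene, the motif begins 68 bases upstream in ASNS (chr7:97872458-97872487, minus strand), 209 in CHAC1 (chr15:40953251-40953280, plus strand, motif on the opposite strand), 97 in SLC1A5 (chr19:46784893-46784922, minus strand), 16 in JDP2 (chr14:75427894-75428021, plus strand), 191 in ATF3 (chr1:212565157-212565284, plus strand) and 42 in CEBPG (chr19:33373985-33374112, plus strand). Against the outermost start of the GENCODE gene span, only the ATF3 motif lies outside the gene, 118 bases before it. The others lie inside, 66 bases after that start in ASNS, 290 in JDP2, 300 in CHAC1, 386 in CEBPG and 3683 in SLC1A5.
ASNS: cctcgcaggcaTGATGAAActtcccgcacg
CHAC1: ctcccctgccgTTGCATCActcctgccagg
SLC1A5: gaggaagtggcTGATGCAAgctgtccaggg
JDP2: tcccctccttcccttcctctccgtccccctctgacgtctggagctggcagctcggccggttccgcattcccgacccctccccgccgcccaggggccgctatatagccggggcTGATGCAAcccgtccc
ATF3: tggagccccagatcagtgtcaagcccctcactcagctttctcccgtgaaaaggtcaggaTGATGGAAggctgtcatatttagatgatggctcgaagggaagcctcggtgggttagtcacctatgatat
CEBPG: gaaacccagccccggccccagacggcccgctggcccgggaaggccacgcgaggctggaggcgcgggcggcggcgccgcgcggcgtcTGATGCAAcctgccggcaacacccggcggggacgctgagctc
A match of letters is a description and not a bound site.

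The first comparison asked how the sensitive cells answered 5-FU. Under the drug, 4 ATF4 response genes were called lower in HCT-116, 11 in HT-29 and 18 in DLD-1. The shares of all genes tested were 3.36%, 3.3% and 1.37% in that order. Without the fold threshold 21, 21 and 30 members were lower, beside 24.4%, 24.9% and 20.3% of all genes. Asparagine synthetase (ASNS), phosphoenolpyruvate carboxykinase 2 (PCK2, the mitochondrial enzyme that makes phosphoenolpyruvate) and phosphoglycerate dehydrogenase (PHGDH, the first enzyme of serine synthesis) were called lower in each of the 3 lines. A further 5 members (DDIT4, PSAT1, SLC7A11, SLC1A4 and PYCR1) were called lower in 2 lines, 14 in 1 line and 15 in none. In HT-29, mean TPM went from 50.6 to 30.2 for PHGDH, 19.8 to 10.2 for PCK2 and 107 to 55.9 for PSAT1. These are short of 2-fold, so the HT-29 calls of these genes depend on the edgeR scale. Of the 20024 genes tested in all 3 lines, 0.0949% were called lower in each and 0.634% in at least 2. By the adjusted p alone, 16 of the 35 members tested in every line were lower in all 3, ATF4 itself among them, beside 7.98% of all genes.

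In sensitive DLD-1, 18 of 35 members tested were called lower and 0 higher, where 1.37% of all genes tested were called lower and 2.66% higher. Without the fold threshold 30 members were lower, beside 20.3% of all genes. The median of the members was -1.06 on the log2 scale and that of all genes 0.015. Called lower were 8 of 12 enzymes tested, 3 of 5 signalling and feedback genes, 3 of 7 carriers, 2 of 7 transcription factors and 2 of 4 of the others tested.

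Among DLD-1 signalling genes the widest gap was in DDIT4, an inhibitor of mTORC1 induced by hypoxia and other stresses (chr10:72273919-72276036, GRCh38). It stood at 94.4, 94.5 and 113 TPM under uracil and at 6.6, 6.08 and 7.06 TPM under 5-FU, a log2 fold change of -4.06 ± 0.24 SE (adjusted p = 3.66e-11). CHAC1, an enzyme that degrades glutathione (chr15:40952962-40956512), went from 22.9, 21.7 and 20.9 TPM to 5.13, 4.4 and 5.08 TPM (log2 -2.30 ± 0.10 SE, adjusted p = 2.94e-13). The 2 groups did not overlap for either gene. SESN2, a leucine sensor that restrains mTORC1, was the third called, with a log2 fold change of -1.29 ± 0.06 SE. TRIB3, a pseudokinase that feeds back on ATF4 (chr20:362835-397559), had 89.3, 88.1 and 89.6 TPM under uracil and 50.3, 49.6 and 50.7 TPM under 5-FU. Its log2 fold change of -0.94 ± 0.05 SE (adjusted p = 4.37e-12) and that of EIF4EBP1, an inhibitor of cap-dependent translation (-0.83), stayed short of 2-fold.

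Most enzymes tested in DLD-1 were called lower, 8 of 12. ASNS (chr7:97851677-97872542) was at 171, 164 and 172 TPM under uracil and at 34.7, 36.2 and 37.7 TPM under 5-FU (log2 -2.45 ± 0.09 SE, adjusted p = 3.06e-14). PCK2 (chr14:24094053-24110598) was at 46.4, 49 and 46.7 TPM and then at 12.6, 12.8 and 11.7 TPM (log2 -2.05 ± 0.09 SE, adjusted p = 2.04e-13). Every 5-FU library was thus below every uracil library for both. The serine route from 3-phosphoglycerate was lower at its first step (PHGDH, log2 -1.52) and second (PSAT1, -1.37), and less so at the last (PSPH, -0.85, not called). Mitochondrial folate enzymes lay close to the 2-fold line, MTHFD2 at -1.06 and called, SHMT2 just short of it and not called. In proline synthesis, PYCR1, the final step, was called lower (-1.41), while ALDH18A1, the first, had -0.23. CTH, which makes cysteine from cystathionine, and GPT2, the mitochondrial alanine transaminase, were called lower at -1.11 and -1.04.

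Carriers in DLD-1 differed among themselves. SLC7A11, the cystine-glutamate exchanger (chr4:138164097-138242349), went from 15.4, 14.7 and 14.1 TPM to 5.15, 4.98 and 4.5 TPM (log2 -1.69 ± 0.08 SE, adjusted p = 1.06e-12). SLC1A4 and SLC1A5, carriers of neutral amino acids such as alanine, serine, cysteine and glutamine, were called lower at -1.36 and -1.08. SLC7A5 and SLC7A1, which carry large neutral and cationic amino acids, each had -0.81, and SLC38A2, a sodium-coupled neutral amino acid carrier, had -0.53. SLC3A2, the heavy chain that SLC7A5 and SLC7A11 need at the membrane, was the one carrier above 0, at 0.51 (adjusted p = 1e-10).

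ATF4 itself, whose protein is controlled mainly by translation (chr22:39519695-39522683), was at 448, 429 and 438 TPM under uracil and at 246, 246 and 244 TPM under 5-FU in DLD-1 (log2 -0.93 ± 0.05 SE, adjusted p = 3.87e-12). DDIT3, which encodes the death-linked factor CHOP (chr12:57516588-57521737), did not follow it. It had 18.9, 20.3 and 19.4 TPM and then 23.3, 21.9 and 23.8 TPM, with a log2 fold change of 0.13 ± 0.07 SE (adjusted p = 0.13). JDP2, a repressor of the AP-1 family (-1.10), and NUPR1, a stress-induced chromatin protein (-1.49), were the factors called lower. CEBPB and CEBPG, which pair with ATF4, had -0.72 and -0.36, and ATF3 passed neither threshold. Of the remaining members, ADM2, a secreted peptide of the adrenomedullin family, dropped from 1.79, 1.98 and 1.76 TPM to 0.319, 0.247 and 0.277 TPM (log2 -2.82 ± 0.20 SE, adjusted p = 4.09e-10). VLDLR, a lipoprotein receptor, was called lower at -1.91, and XPOT, the tRNA exporter, had -0.70. INHBE, an activin subunit, had -1.40 ± 0.47 SE (adjusted p = 0.0185) and was not called. CBS and STC2 were too low in DLD-1 to be tested.

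Sensitive HCT-116 cells showed a smaller set. Of 37 members tested, 4 were called lower and 1 higher, where 3.36% of all genes were called lower and 4.79% higher. With limma on log2(TPM + 1) the count of calls was 3 in place of 5. On the adjusted p alone, 21 members were lower and 4 higher, beside 24.4% of all genes lower. The median of the members was -0.25 and that of all genes 0.025. Called lower were 3 of 13 enzymes and 1 of 7 carriers, and the gene called higher was a transcription factor.

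In HCT-116, PCK2 was at 16.9, 15.3 and 16.7 TPM under uracil and at 4.93, 5.05 and 5.84 TPM under 5-FU (log2 -1.82 ± 0.08 SE, adjusted p = 9.73e-15). PHGDH (chr1:119648411-119744218) went from 99.9, 103 and 109 TPM to 31.5, 30.4 and 31.6 TPM (log2 -1.78 ± 0.06 SE, adjusted p = 5.61e-17). These steps feed serine and phosphoenolpyruvate, and neither set of libraries overlapped. ASNS went from 127, 122 and 130 TPM to 59.4, 62.8 and 62.3 TPM (log2 -1.28 ± 0.06 SE, adjusted p = 1.69e-13). SLC1A4 was far lower in this line than in DLD-1 and went from 2.16, 2.33 and 2.39 TPM to 1.08, 0.965 and 1.3 TPM (log2 -1.24 ± 0.09 SE, adjusted p = 1.43e-10). NUPR1 moved the other way, from 0.417, 0.428 and 0.407 TPM to 1.13, 0.934 and 1.1 TPM (log2 1.22 ± 0.17 SE, adjusted p = 2.51e-06), so it was called in opposite directions in DLD-1 and HCT-116.

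The other fixed members changed less in HCT-116. ATF4 had 332, 309 and 335 TPM and then 219, 222 and 226 TPM, a log2 fold change of -0.55 ± 0.04 SE (adjusted p = 3.35e-10). DDIT3 had 16.4, 18.9 and 17.6 TPM and then 12.7, 11.6 and 11 TPM (log2 -0.59 ± 0.08 SE, adjusted p = 2.18e-06), and SLC7A11 had 10.8, 11.8 and 10.6 TPM and then 8.1, 7.34 and 6.82 TPM (log2 -0.63 ± 0.10 SE, adjusted p = 2.4e-05). For all 3 the 5-FU libraries lay below the uracil libraries without reaching 2-fold. TRIB3 had 30.1, 28 and 28.5 TPM and then 27.3, 27 and 26.1 TPM (adjusted p = 0.0901). CHAC1 had 2.98, 2.94 and 3.4 TPM and then 3.7, 3.83 and 3.72 TPM (adjusted p = 0.0853). SESN2 was above 0 at 0.52 and ATF3 at 0.33, both past the adjusted p and short of 2-fold. CBS, which condenses serine with homocysteine, was at 0.0675 to 0.254 TPM under uracil and 0.173 to 0.303 TPM under 5-FU, and shares reads with a near-identical copy. Alone it was not called (log2 1.30 ± 0.57 SE, adjusted p = 0.0606), and summed with the copy it was (1.28), so its value is uncertain.

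**Figure D1:**
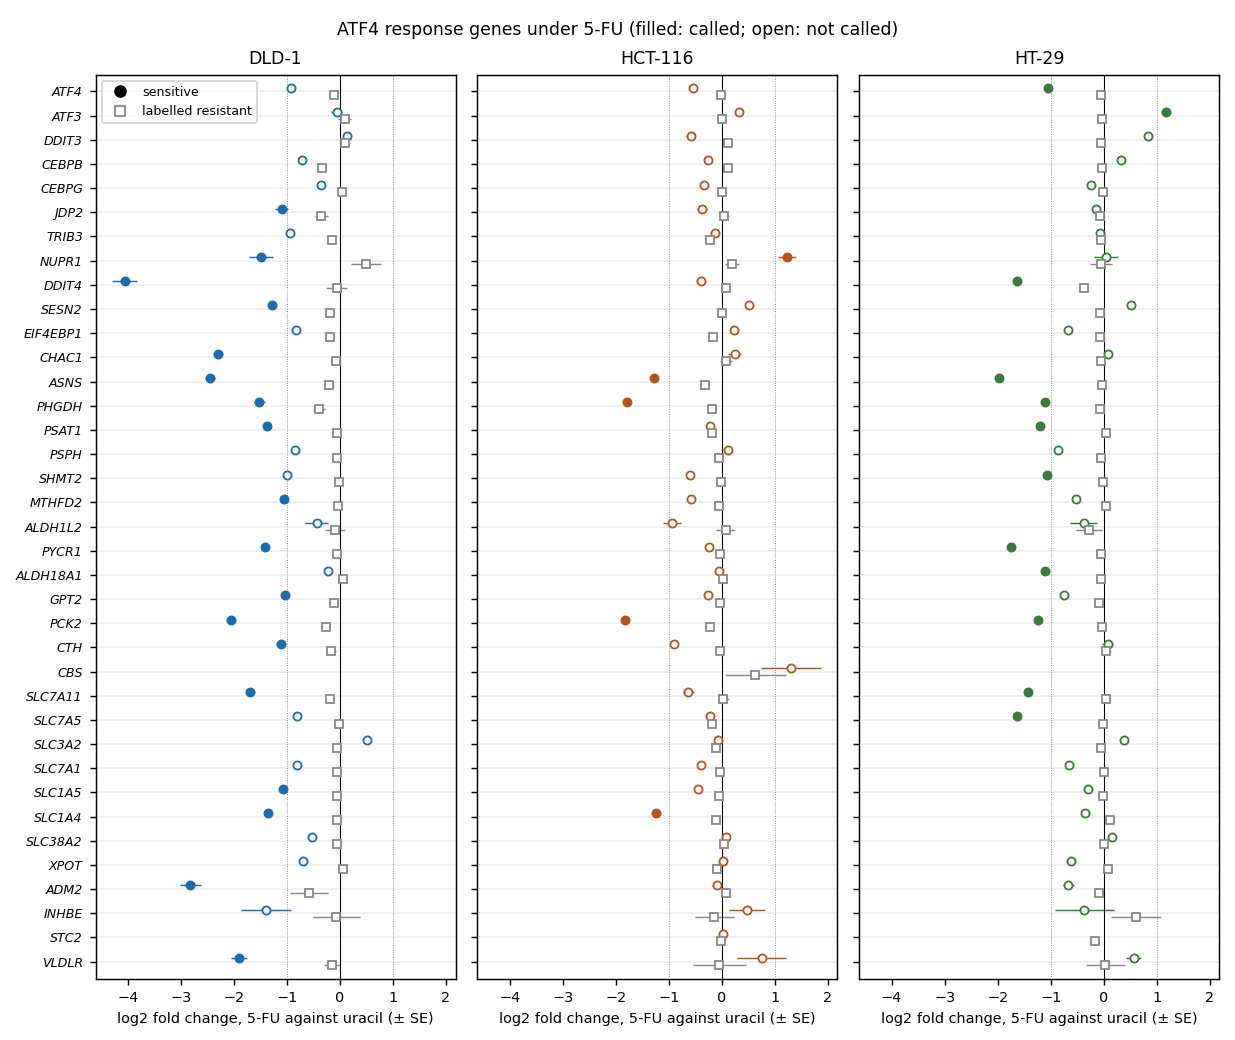
Log2 fold change of each member under 5-FU against uracil (x axis, ± SE, from the edgeR fit of each line) for sensitive cells (circles) and cells labelled resistant (grey squares). Filled symbols were called, and 18, 5 and 12 members are filled for sensitive cells from left to right, while no resistant symbol is filled. STC2 in sensitive HT-29 (at the detection floor) and untested members are left out.

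In sensitive HT-29, 11 of 36 members tested were called lower and 1 higher, where 3.3% of all genes were called lower and 8.86% higher. With limma on log2(TPM + 1) the count of calls was 6 in place of 12. Without the fold threshold 21 members were lower and 7 higher, beside 24.9% of all genes lower, and the median was -0.45 for the members and 0.035 for all genes. The lower members were 7 of 12 enzymes tested, 2 of 7 carriers, ATF4 and DDIT4. The spread among members was wide, since transcription factors were called in both directions.

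ASNS in HT-29 went from 113, 112 and 107 TPM under uracil to 37.3, 34.2 and 37.1 TPM under 5-FU (log2 -1.98 ± 0.05 SE, adjusted p = 1.37e-21). PYCR1 (chr17:81932384-81942412) went from 89.9, 94.9 and 90 TPM to 32.3, 33.5 and 33.1 TPM (log2 -1.75 ± 0.05 SE, adjusted p = 3.7e-20). Both enzymes were lower in every 5-FU library than in any uracil library. The first step of proline synthesis, ALDH18A1, was called lower (-1.10), as was SHMT2 (-1.08), beside PCK2 (-1.24), PSAT1 (-1.20) and PHGDH (-1.11). DDIT4 went from 33, 32.8 and 32.4 TPM to 12.4, 11.7 and 14.6 TPM (log2 -1.63 ± 0.07 SE, adjusted p = 1.9e-16). SLC7A5 went from 121, 128 and 119 TPM to 47.6, 47.8 and 47.7 TPM (log2 -1.63 ± 0.04 SE, adjusted p = 3.17e-20), and SLC7A11 from 36.4, 32.8 and 36.6 TPM to 16.2, 15.7 and 15.8 TPM (log2 -1.43 ± 0.04 SE, adjusted p = 1.27e-19). SLC3A2, the partner chain of both carriers, was above 0 at 0.38 (adjusted p = 9.95e-08), as in DLD-1.

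Among HT-29 factors, ATF4 went from 281, 294 and 260 TPM to 153, 155 and 158 TPM (log2 -1.06 ± 0.05 SE, adjusted p = 8.81e-16). Without uracil replicate 1 or 2 its value was -0.99 or -0.95, which is short of 2-fold. ATF3, a stress-induced factor of the same family, rose from 1.67, 2.43 and 2.3 TPM to 5.17, 4.3 and 4.77 TPM (log2 1.17 ± 0.09 SE, adjusted p = 8.57e-12). DDIT3 had 14.5, 15.4 and 16.8 TPM and then 30.7, 33.6 and 33.3 TPM. On the edgeR scale this was 0.84 ± 0.06 SE (adjusted p = 2.12e-11), short of 2-fold, and on log2(TPM + 1) with limma it was 1.02 and called. On the edgeR scale ATF4 was thus called lower and ATF3 called higher in the same libraries. In mean TPM, ATF4 went from 278 to 155, which is short of 2-fold. TRIB3 had 39.9, 44 and 39 TPM and then 46, 46.2 and 45.6 TPM (log2 -0.08 ± 0.06 SE, adjusted p = 0.256), with a sign that depended on the scaling. CHAC1 had 4.56, 4.76 and 4.72 TPM and then 5.93, 6.13 and 5.87 TPM (log2 0.08 ± 0.07 SE, adjusted p = 0.332).

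**Figure D2:**
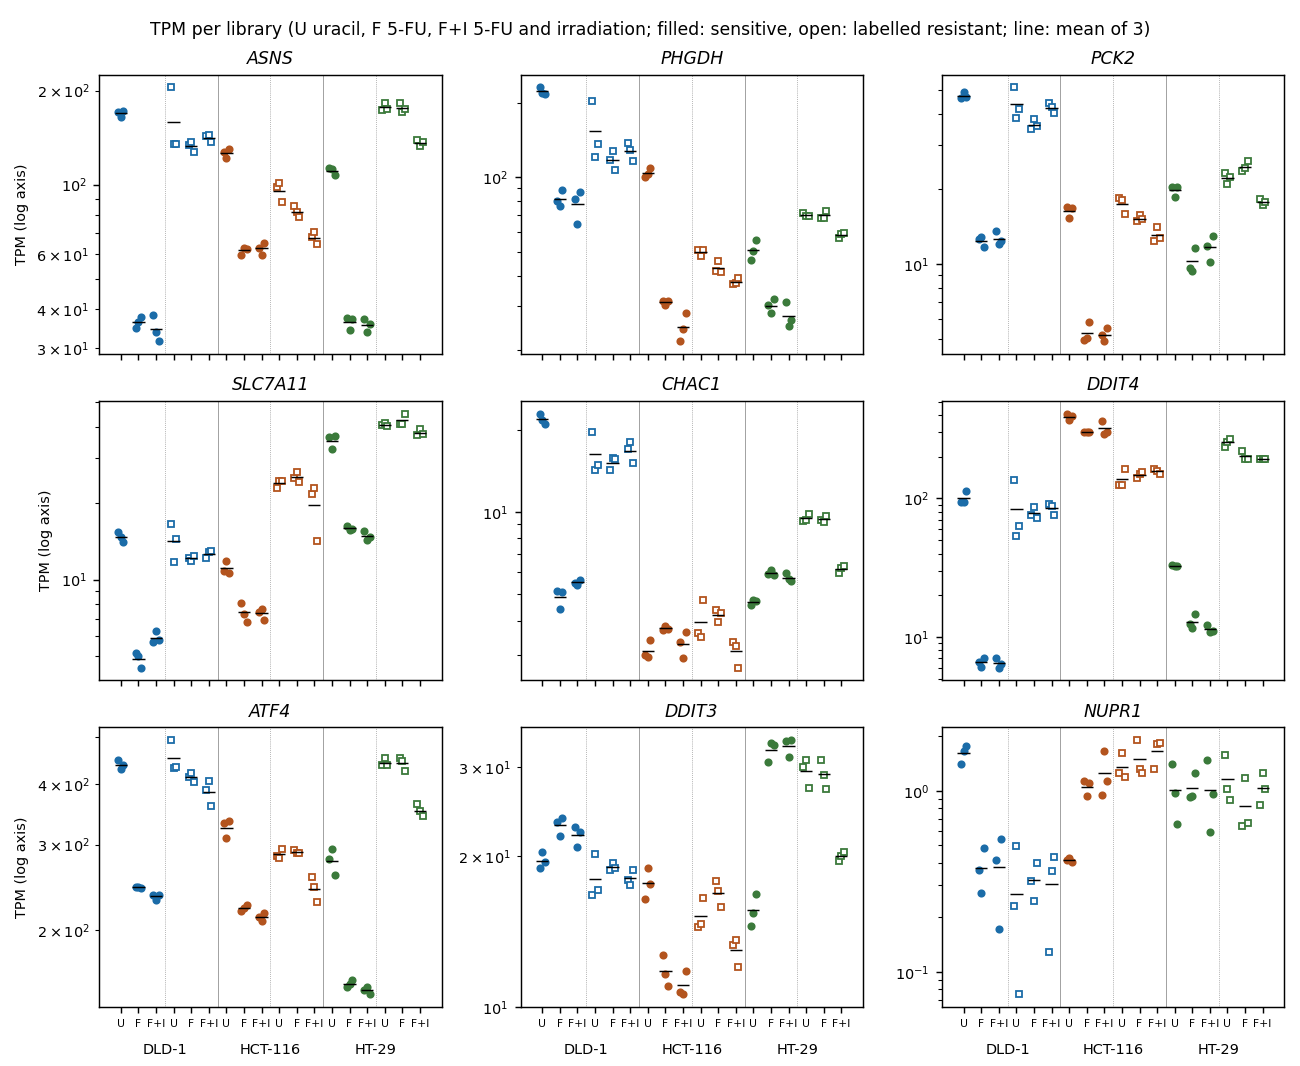
TPM on a log axis in each of the 54 libraries for 9 members, by line and under uracil (U), 5-FU (F) and 5-FU with irradiation (F+I). Filled circles are sensitive cells, open squares are cells labelled resistant and lines are means of 3. ASNS drops from 164 to 172 TPM to 34.7 to 37.7 TPM in sensitive DLD-1, while resistant DLD-1 stays between 127 and 205 TPM.

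The transcripts behind the gene values moved as the genes did. For all 18 members called lower in DLD-1, the 4 in HCT-116 and the 11 in HT-29, the transcript with the highest mean TPM was lower in every 5-FU library than in every uracil library, and the leading transcripts of NUPR1 in HCT-116 and ATF3 in HT-29 were higher. For DDIT4 in DLD-1 that transcript made up 93.7% of the gene's TPM, whereas the leading ASNS transcript made up 23.6%.

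The size of the 5-FU response was then compared between the sensitive lines in 1 fit over all 54 libraries. The difference itself was called for 11 of 37 members between HCT-116 and DLD-1, all with the value higher in HCT-116, where 5.31% of all genes were called in either direction. Between HT-29 and DLD-1 it was called for 11 of 37, again all higher in HT-29, beside 6.87% of all genes. CHAC1 differed by 2.55 ± 0.14 SE in HCT-116 and by 2.45 ± 0.13 SE in HT-29, both relative to DLD-1 (adjusted p = 4.55e-21 and 6.99e-21). SESN2 differed by 1.81 and 1.87 and DDIT4 by 3.66 and 2.50 in the same order. Both comparisons share the DLD-1 libraries. Between HT-29 and HCT-116, 2 members were called higher in HT-29 (DDIT3 at 1.49 and CTH at 1.02) and 4 lower (PYCR1 at -1.44, SLC7A5 at -1.34, DDIT4 at -1.17 and NUPR1 at -1.12), beside 12.1% of all genes. Without replicate 1 the NUPR1 difference was -0.63 (adjusted p = 0.15). PHGDH and PCK2, called in each line, were not called in these differences.

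Other arms of the stress response were read from lists of related genes. Aminoacyl-tRNA synthetases, which charge tRNAs and include many ATF4 targets, had a median of -0.60 in DLD-1 with 5 of 20 called lower (CARS at -1.24, GARS at -1.18, YARS at -1.05 and MARS at -1.04 among them). Their median was -0.81 in HT-29 with 2 of 20 called lower (IARS at -1.03 and MARS at -1.01) and -0.16 in HCT-116 with 0 called. By the adjusted p alone 17, 20 and 11 of 20 were lower in DLD-1, HT-29 and HCT-116, beside 20.3%, 24.9% and 24.4% of all genes. In HCT-116, 2 of the synthetases were higher by that rule. The chaperones and regulators of the endoplasmic reticulum had medians of -0.35 in HCT-116, -0.43 in HT-29 and -0.62 in DLD-1, and only HSPA5 (-1.07) and XBP1 (-1.17) in DLD-1 were called. The median of this list was thus below 0 in all 3 lines. By the adjusted p alone, 14 of its 18 genes were lower in HCT-116, 14 in HT-29 and 18 in DLD-1. The shares of all genes were 24.4%, 24.9% and 20.3% in that order. In HT-29, 2 genes of the list were higher by the same rule.

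In the list of eIF2 kinases and phosphatase subunits, PPP1R15A (GADD34, which restores translation by dephosphorylating eIF2) rose in DLD-1 (1.50) and HT-29 (1.29), and OMA1, the mitochondrial protease that relays mitochondrial stress, fell in both (-1.39 and -1.49). IMPACT, an inhibitor of the kinase GCN2, fell in HT-29 (-1.36), and none of the 16 genes was called in HCT-116. Among other one-carbon genes, TYMS (-1.34), the drug's enzyme target, fell in HCT-116 and MTHFD1L (-1.16) in HT-29. Hypoxia genes, listed because DDIT4 is one too, had medians of -0.27, -0.40 and -0.14, with EGLN3 lower in DLD-1 (-1.45) and HCT-116 (-1.01), CA9 (-1.57) and PDK1 (-1.18) lower in HT-29 and ADM higher there (1.13). Of the 10 NRF2 targets listed, 0 were called in any of the 3 lines. That list leaves out SLC7A11, a member that NRF2 also induces. The part of these other programmes in the members' values was not tested.

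**Figure D3:**
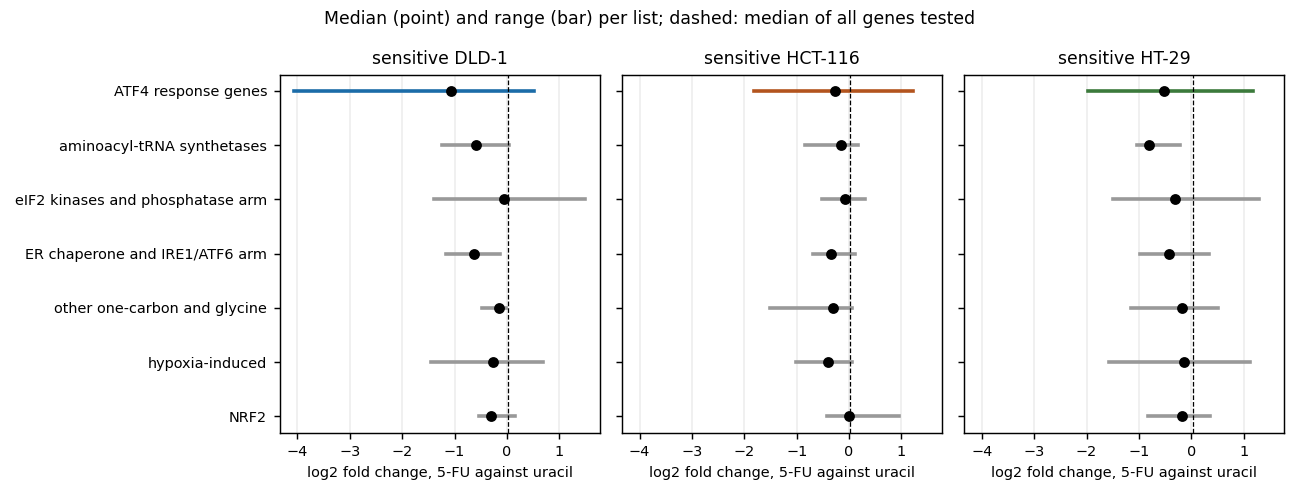
Median (point) and range (bar) of the log2 fold change under 5-FU against uracil for the members (coloured, without CBS and STC2) and for 6 lists of related genes (grey) in the sensitive lines. The dashed line is the median of all genes tested, and the members reach lowest in DLD-1, where DDIT4 is at -4.06.

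The same drug comparison in resistant cells gave no called member. These cells had been maintained at a higher dose than the one tested, so resistance and earlier exposure cannot be told apart here. In resistant DLD-1, resistant HCT-116 and labelled resistant HT-29, 0 of 35, 0 of 37 and 0 of 36 members were called by edgeR's quasi-likelihood test, where 0.0138%, 0% and 0.00421% of all genes were called in either direction. At an unadjusted p under 0.05 there were 11, 9 and 3 members, beside 18.5%, 8.17% and 5.39% of all genes, and DESeq2 also called 0 in each. The median of the members was -0.06, -0.03 and -0.04. ASNS was at 205, 135 and 135 TPM under uracil and 134, 137 and 127 TPM under 5-FU in resistant DLD-1. In resistant HCT-116 it was at 98.2, 101 and 87.9 TPM and then at 85.3, 81.6 and 79 TPM, which do not overlap but lie close. Labelled resistant HT-29 had 173, 183 and 175 TPM and then 182, 171 and 175 TPM, with overlap. By the adjusted p alone 1 member passed, DDIT4 in labelled resistant HT-29, from 236, 257 and 269 TPM to 221, 192 and 191 TPM (log2 -0.38 ± 0.06 SE, adjusted p = 0.00203).

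The response of resistant minus sensitive cells was tested as an interaction. In DLD-1 the difference was called for 15 of 35 members, all above 0, beside 3.12% of all genes in either direction. DDIT4 (4.00 ± 0.31 SE, adjusted p = 7.74e-09), ASNS (2.25 ± 0.12 SE, adjusted p = 5.04e-11), ADM2 (2.23), CHAC1 (2.22) and NUPR1 (1.98) differed most. DDIT4 in resistant DLD-1 was spread wide, at 135, 53.2 and 63 TPM under uracil and 76, 86.7 and 71.8 TPM under 5-FU, and the ADM2 difference starts from 0.0778 to 0.127 TPM under uracil. CHAC1 was at 19.6, 14.3 and 14.9 TPM and then at 14.2, 15.7 and 15.6 TPM, so its groups overlapped.

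In HCT-116 the difference was called for 4 members above 0 (PHGDH at 1.60, PCK2 at 1.59, SLC1A4 at 1.12 and ALDH1L2 at 1.01) and for NUPR1 below 0 (-1.03), beside 6.11% of all genes. PHGDH in resistant HCT-116 was at 50.6, 48.2 and 50.7 TPM under uracil and 41.9, 46 and 41.3 TPM under 5-FU. Without sensitive uracil replicate 1 the count was 3, and NUPR1 and ALDH1L2, both at low levels, were the members lost. The NUPR1 call was lost without any of 5 libraries, with values down to -0.88. In HT-29 the difference was called for 11 members above 0, led by ASNS (1.94), PYCR1 (1.70) and SLC7A5 (1.62), and for ATF3 below 0 (-1.21), beside 9.28% of all genes. There the 2 sides also differ in the line their markers point to, so resistance and line cannot be told apart.

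**Figure D4:**
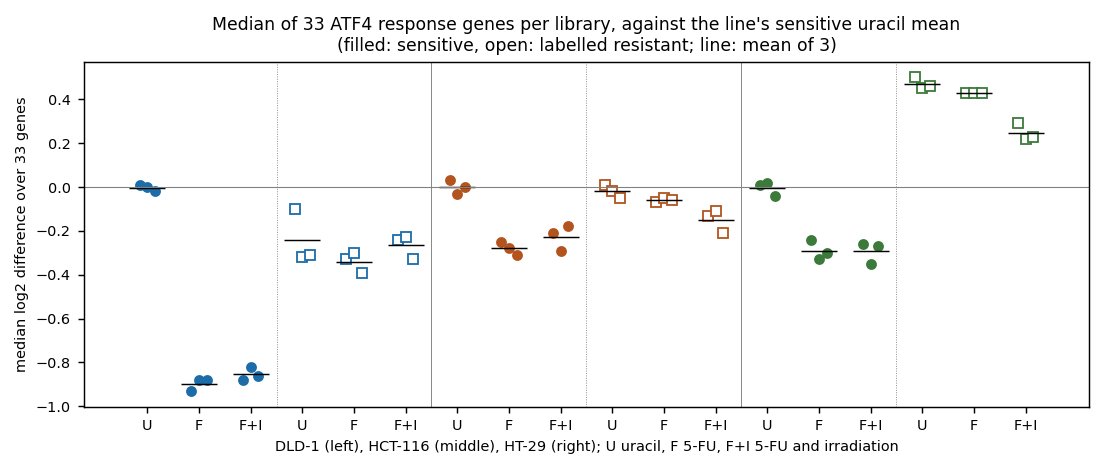
Median over 33 members (37 without CBS, ALDH1L2, INHBE and STC2) of the difference in log2(TPM + 1) from the line's mean in sensitive cells under uracil, for each of the 54 libraries. Sensitive DLD-1 libraries with 5-FU, irradiated or not, lie between -0.93 and -0.82, all other libraries at -0.39 or above, and labelled resistant HT-29 libraries lie between 0.22 and 0.50.

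Irradiation on top of 5-FU was compared with 5-FU alone. In the sensitive lines 0 members were called, where called genes made up 0% of those tested for DLD-1, 0% for HCT-116 and 0.00842% for HT-29, and 5, 5 and 2 members had an unadjusted p under 0.05, beside 11.2%, 8.46% and 3.31% of all genes. PHGDH in HCT-116 alone passed the adjusted p, from 31.5, 30.4 and 31.6 TPM to 21.7, 24.4 and 28.3 TPM (log2 -0.32 ± 0.06 SE, adjusted p = 0.00202). DESeq2 called 0 members here too.

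In resistant cells 0 members reached 2-fold either, where 0.142%, 0.0261% and 0.434% of genes were called in DLD-1, HCT-116 and labelled resistant HT-29, but smaller shifts were seen. By the adjusted p alone, 18 of 36 members were lower in labelled resistant HT-29, beside 6.94% of all genes, 6 of 37 in resistant HCT-116, beside 0.884%, and 0 of 35 in resistant DLD-1, beside 1.43%. CHAC1 in labelled resistant HT-29 was at 9.36, 9.2 and 9.63 TPM under 5-FU and at 5.97, 6.24 and 6.36 TPM with irradiation (log2 -0.60 ± 0.07 SE, adjusted p = 5.5e-07). DDIT3 went from 31, 29 and 27.2 TPM to 19.5, 20 and 20.3 TPM (log2 -0.58 ± 0.07 SE, adjusted p = 3.81e-07), and TRIB3 from 42.2, 41.6 and 40.9 TPM to 30.2, 28.8 and 27.5 TPM (log2 -0.54 ± 0.06 SE, adjusted p = 1.55e-07). ATF4 (-0.34), ASNS (-0.39) and PCK2 (-0.46) were lower as well, and no 5-FU library overlapped an irradiated one for these 6 genes. ATF3 (0.27) was the only member higher by the adjusted p, while 9 members lay above 0.

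The 6 members lower in resistant HCT-116 were DDIT3 (-0.37), ASNS (-0.31), SLC7A1 (-0.28), CEBPG (-0.27), ATF4 (-0.25) and XPOT (-0.20), and all 6 were also among the 18 of labelled resistant HT-29. CTH (0.40), SESN2 (0.34) and ATF3 (0.31) were higher there. ATF4 in resistant HCT-116 was at 293, 289 and 288 TPM under 5-FU and at 257, 245 and 229 TPM with irradiation. In resistant DLD-1 it was at 414, 421 and 404 TPM and then at 389, 405 and 361 TPM, which overlap. Whether the shift differed between the lines was not tested, and the radiation dose was set line by line.

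Resistant and sensitive cells were next compared under uracil. In DLD-1, 3 of 35 members were called, beside 5.7% of all genes. ADM2 was at 1.79, 1.98 and 1.76 TPM in sensitive and at 0.127, 0.0778 and 0.12 TPM in resistant cells (log2 -4.12 ± 0.24 SE, adjusted p = 1.42e-11), and NUPR1 at 1.41, 1.67 and 1.77 TPM and 0.232, 0.498 and 0.0753 TPM (log2 -2.10 ± 0.24 SE, adjusted p = 6.46e-07). Both were low in every resistant library. ALDH1L2, a mitochondrial folate enzyme that stayed under 1 TPM on average, was called higher at 1.20, and at 0.95 without resistant replicate 1 it no longer was. By the adjusted p alone 17 members were lower, beside 11.5% of all genes, GPT2 (-0.93), VLDLR (-0.85) and SLC1A4 (-0.72) furthest among them, while ASNS (-0.14) and ATF4 (0.02) were not.

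In HCT-116, 4 of 37 members were called, beside 11% of all genes, a near equal share. DDIT4 was at 409, 369 and 392 TPM in sensitive and at 125, 125 and 162 TPM in resistant cells (log2 -1.56 ± 0.09 SE, adjusted p = 1.1e-12), and PHGDH at 99.9, 103 and 109 TPM and 50.6, 48.2 and 50.7 TPM (log2 -1.18 ± 0.05 SE, adjusted p = 6.92e-14). SLC7A11 was higher, at 10.8, 11.8 and 10.6 TPM and 22.9, 24.5 and 24.4 TPM (log2 1.11 ± 0.10 SE, adjusted p = 4.98e-09), and so was NUPR1, at 0.417, 0.428 and 0.407 TPM and 1.25, 1.62 and 1.2 TPM (log2 1.72 ± 0.17 SE, adjusted p = 1.42e-08). None of these 4 overlapped between the groups. Beside DDIT4, 8 of 10 hypoxia genes were called lower in the same comparison, NDRG1 by -3.28, EGLN3 by -2.59 and CA9 by -1.88 on the log2 scale, and their part in the DDIT4 value was not tested. Beside SLC7A11, which NRF2 also induces, 0 of 10 NRF2 genes were called higher and NQO1 was called lower at -1.56, and their part in the SLC7A11 value was not tested.

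Labelled resistant and sensitive HT-29 differed in 13 of 36 members, 7 higher and 6 lower, beside 39.4% of all genes, which is near the member share. STC2, a secreted glycoprotein (chr5:173314723-173328447), was at 0, 0 and 0 TPM in sensitive HT-29 and at 66.2, 69.3 and 69.6 TPM in the labelled resistant cells, at least 2296-fold higher against a floor of 3 counts per library. ATF3 was at 1.67, 2.43 and 2.3 TPM and 22.1, 22.6 and 21.1 TPM (log2 3.03 ± 0.08 SE, adjusted p = 4.23e-22), and DDIT4 at 33, 32.8 and 32.4 TPM and 236, 257 and 269 TPM (log2 2.64 ± 0.06 SE, adjusted p = 1.04e-22). CTH (2.02) and SLC38A2 (1.95) were higher as well, SLC38A2 at 96.2, 91 and 98 TPM against 455, 456 and 447 TPM and CTH at 1.99, 1.77 and 2.26 TPM against 10.1, 8.64 and 9.73 TPM. PYCR1 (1.14) and NUPR1 (1.04) completed the 7, and the NUPR1 libraries overlapped. The genes on the other side included receptors and carriers. VLDLR was at 2.1, 1.93 and 1.75 TPM and 0.116, 0.0308 and 0.0417 TPM (log2 -4.25 ± 0.23 SE, adjusted p = 3.75e-15), and SLC1A5 at 458, 475 and 438 TPM and 153, 149 and 145 TPM (log2 -1.92). GPT2 was at 61.8, 60.6 and 55.4 TPM and 21.8, 23.3 and 22.4 TPM (log2 -1.91), SLC7A1 at 90.6, 91.2 and 91.5 TPM and 37.4, 36.2 and 37.5 TPM (log2 -1.59), CEBPG was called at -1.04, and CEBPB was at 118, 114 and 108 TPM and 62.8, 64.2 and 66.4 TPM (log2 -1.08).

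Because of the doubt over the label, sensitive HCT-116 levels are given beside these. Sensitive HCT-116 had 36.5, 39.1 and 34.9 TPM of STC2, 0.048, 0.0482 and 0.0145 TPM of VLDLR, 126, 121 and 121 TPM of SLC1A5 and 342, 365 and 343 TPM of SLC38A2, each nearer to the labelled resistant HT-29 libraries than sensitive HT-29 was. These genes were taken from those called between labelled resistant and sensitive HT-29, a choice that favours this outcome. NUPR1 was the other way round, with means of 0.417 TPM in sensitive HCT-116, 1.01 TPM in sensitive HT-29 and 1.16 TPM in labelled resistant HT-29. So were members not called there, such as TRIB3 (means of 28.8, 41 and 41.9 TPM in the same order) and CHAC1 (3.11, 4.68 and 9.48 TPM). How many members lay on each side was not counted. Set against sensitive HCT-116, labelled resistant HT-29 differed in 3 of 37 members, beside 6.87% of all genes. SLC7A11 was at 10.8, 11.8 and 10.6 TPM in sensitive HCT-116 and at 40.7, 41.3 and 40.3 TPM in labelled resistant HT-29 (log2 1.76 ± 0.09 SE, adjusted p = 5.13e-23), and CHAC1 at 2.98, 2.94 and 3.4 TPM and 9.24, 9.38 and 9.83 TPM (log2 1.43 ± 0.10 SE, adjusted p = 6.64e-17). ALDH1L2 was called lower on counts (-1.07), and its TPM overlapped, at 0.915, 0.834 and 0.537 TPM in sensitive HCT-116 and 1.01, 1.01 and 0.284 TPM in labelled resistant HT-29. Most other members lay a little above 0, 29 of 37 in all, and 21 were higher by the adjusted p alone, beside 12.4% of all genes, among them PSAT1 (0.66), DDIT3 (0.62), TRIB3 (0.41), ATF4 (0.32) and ASNS (0.30), while PHGDH (-0.68) and DDIT4 (-0.75) were lower. Against resistant HCT-116, 2 of 37 members were called, beside 3.36% of all genes, CHAC1 (1.16 ± 0.10 SE, from 3.59, 3.48 and 4.74 TPM) and STC2 (1.07 ± 0.05 SE, from 27.6, 29.9 and 27.3 TPM), and 22 were higher by the adjusted p alone, beside 11.3% of all genes.

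**Figure D5:**
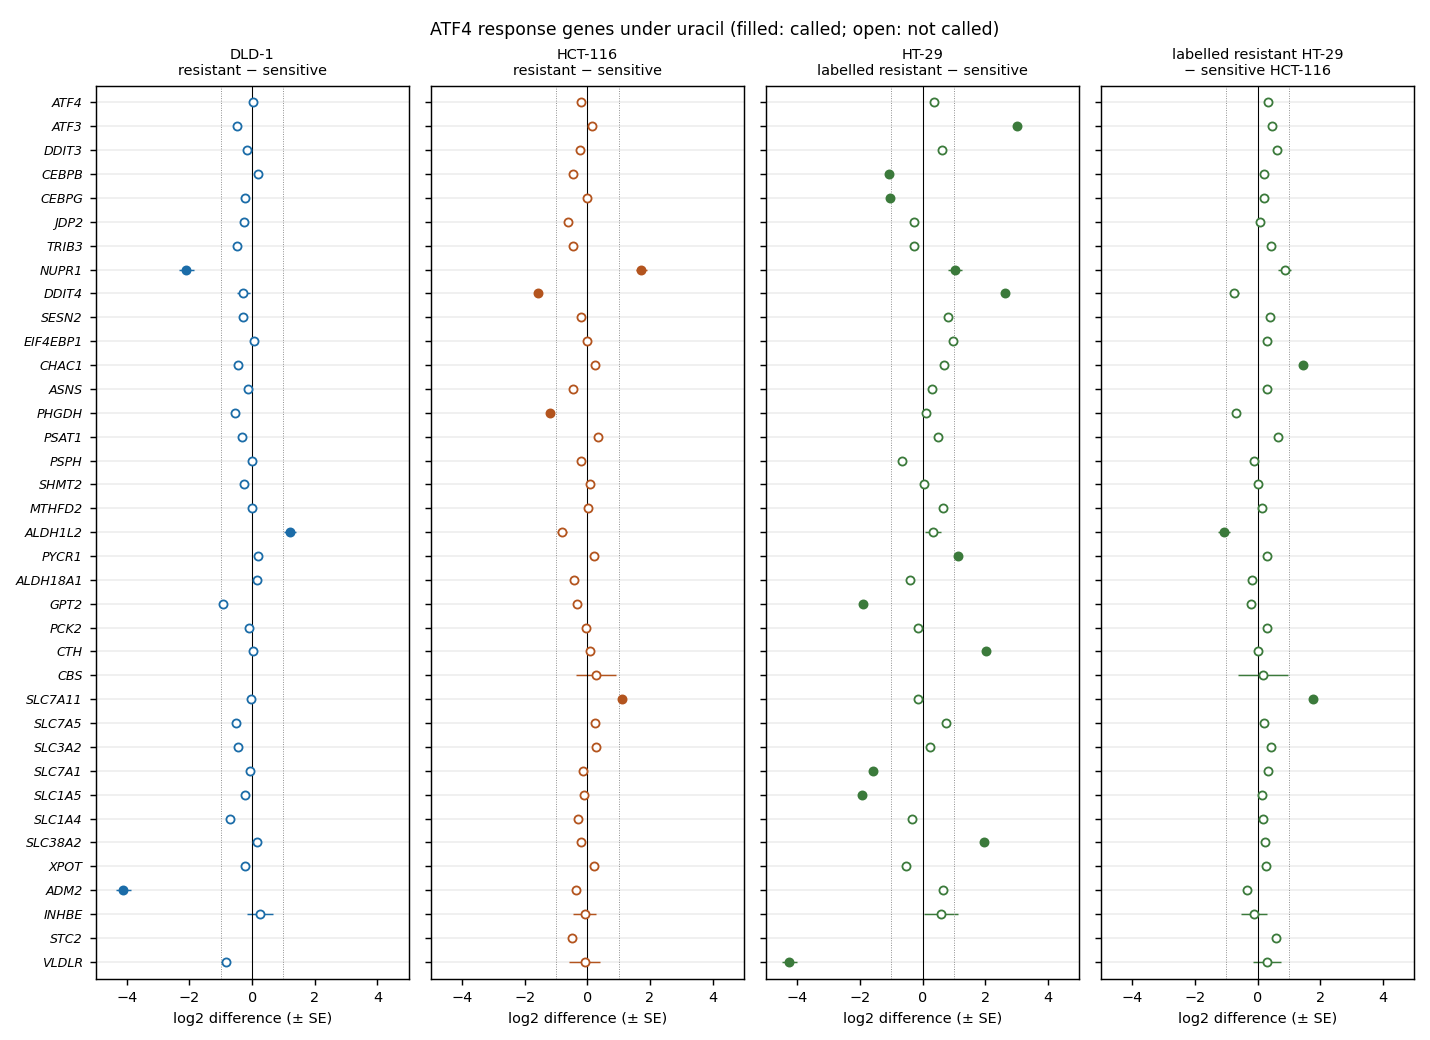
Log2 difference (x axis, ± SE) of each member under uracil between resistant and sensitive cells of each line, and between labelled resistant HT-29 and sensitive HCT-116. Filled circles were called (3, 4, 12 and 3 from left to right, without STC2 in the third panel, whose sensitive libraries are at 0), and the dotted lines mark 2-fold.

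The sensitive lines also began from different levels under uracil. Between HCT-116 and DLD-1, 13 of 37 members were called (5 higher, 8 lower in HCT-116), beside 30.7% of all genes. Between HT-29 and DLD-1 there were 16 (6 higher, 10 lower in HT-29), beside 30.9%, and between HT-29 and HCT-116 there were 14 (7 each way), beside 37.5%. The first and the last of these member counts lie near the share of all genes. DLD-1 held the highest levels of several enzymes and feedback genes. CHAC1 was at 20.9 to 22.9 TPM in DLD-1, 2.94 to 3.4 TPM in HCT-116 and 4.56 to 4.76 TPM in HT-29. PHGDH was at 231, 219 and 216 TPM in DLD-1, at 99.9, 103 and 109 TPM in HCT-116 and at 46.3, 50.1 and 55.5 TPM in HT-29.

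Several members split the lines further. TRIB3 was at 89.3, 88.1 and 89.6 TPM in DLD-1 and at 28 to 30.1 TPM in HCT-116 (log2 -1.67), with HT-29 between at 39 to 44 TPM. SLC1A4 was at 35.1 to 37.7 TPM in DLD-1 and at 2.16 to 2.39 TPM in HCT-116 and 2.81 to 3.31 TPM in HT-29. Carriers in HT-29 went both ways against DLD-1, 3 called higher (SLC7A11, SLC7A1 and SLC1A5) and SLC1A4 called lower, while SLC7A5 (-0.85) and SLC3A2 (-0.65) were lower by the adjusted p and short of 2-fold. SLC1A5 was at 438 to 475 TPM there, against 234 to 248 TPM in DLD-1, and SLC7A11 at 32.8 to 36.6 TPM against 14.1 to 15.4 TPM. CEBPG was at 55.7 to 59.7 TPM in HT-29 and between 28.1 and 29.9 TPM in the other two lines. STC2 was at 34.9 TPM or more in HCT-116 alone, with DLD-1 and HT-29 at no more than 0.0047 TPM, and sensitive HT-29 at least 1437-fold lower than HCT-116 against the floor of 3 counts. DDIT4 followed the order HCT-116 (369 to 409 TPM), DLD-1 (94.4 to 113 TPM) and HT-29 (32.4 to 33 TPM), with no overlap between neighbours. ATF4 itself had 429 to 448 TPM in DLD-1, 309 to 335 TPM in HCT-116 and 260 to 294 TPM in HT-29, and the HT-29 and HCT-116 means did not pass the test of their difference.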

How the data were processed

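Poly(A) RNA from 54 libraries (18 conditions, 3 each) was sequenced from directional libraries. The authors trimmed reads with Trimmomatic 0.36, checked them with FastQC 0.11.8 and ran kallisto 0.44.0 against GRCh38.p13 transcripts, and deposited estimated counts and TPM per transcript and per gene. Estimated counts (60.7% whole) were rounded. They were not corrected for transcript length, so a shift between transcripts can move counts and TPM apart. Totals were 38957142 to 218518344, and deeper libraries give smaller counting error.

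Within each line, 18 libraries in 6 groups were fitted with edgeR 4.0.16 (R 4.3.3, TMM scaling, filterByExpr, quasi-likelihood test). Comparisons between lines used all 54. Adjusted p-values (Benjamini-Hochberg) cover all genes tested. Called means an adjusted p of at most 0.01 and at least 2-fold. Simulated counts with 2.5-fold changes for the DLD-1 comparison (21814 genes) gave 99 of 100 recovered. Alternatives were DESeq2 1.42.0, limma 3.58.1 on log2(TPM + 1), library size alone, no filter, only the compared groups and a replicate block. Counts were also summed over near-identical copies, and libraries were left out. Within a line each library was left out in turn. In the fit over all 54, each replicate number was left out of every group at once.

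All 37 members are named. Library values are given for up to 5 called members each way with a mean of 1 TPM or more, by size of change, and always under 5-FU for ASNS, ATF4, DDIT3, TRIB3, CHAC1 and SLC7A11. Members and lists were chosen with earlier results of these data known. One further list of related genes and 1 gene are not reported here. Line markers had at least 10 TPM in one sensitive line and at most 0.1 TPM in the others. Gene positions are from GENCODE 44. Figures were drawn with matplotlib 3.10.9.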

Additional observations from a re-analysis of the deposited data

Results flagged for a closer look

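The results given here are members whose 5-FU response differed between groups by the test of the difference itself, as log2 differences from edgeR. For resistant minus sensitive DLD-1, the enzymes differed by 2.25 (ASNS), 1.79 (PCK2), 1.36 (PYCR1), 1.32 (PSAT1), 1.13 (PHGDH) and 1.03 (MTHFD2). The signalling genes differed by 4.00 (DDIT4), 2.22 (CHAC1) and 1.11 (SESN2), the carriers by 1.50 (SLC7A11), 1.30 (SLC1A4) and 1.02 (SLC1A5), and the remaining members by 2.23 (ADM2), 1.98 (NUPR1) and 1.76 (VLDLR). For HCT-116 the values were 1.60 (PHGDH), 1.59 (PCK2), 1.12 (SLC1A4), 1.01 (ALDH1L2) and -1.03 (NUPR1). For HT-29, where the markers of the labelled resistant libraries under uracil are those of HCT-116, they were 1.94 (ASNS), 1.70 (PYCR1), 1.62 (SLC7A5), 1.48 (SLC7A11), 1.25 (PSAT1), 1.25 (DDIT4), 1.21 (PCK2), 1.06 (SHMT2), 1.04 (ALDH18A1), 1.03 (PHGDH), 1.02 (ATF4) and -1.21 (ATF3).

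Between the sensitive lines, the response of HCT-116 minus DLD-1 differed by 3.66 (DDIT4), 2.72 (ADM2), 2.72 (NUPR1), 2.66 (VLDLR), 2.55 (CHAC1), 1.81 (SESN2), 1.17 (ASNS), 1.17 (PYCR1), 1.16 (PSAT1), 1.07 (SLC7A11) and 1.06 (EIF4EBP1). For HT-29 minus DLD-1 the values were 2.54 (VLDLR), 2.50 (DDIT4), 2.45 (CHAC1), 2.21 (ADM2), 1.87 (SESN2), 1.59 (NUPR1), 1.30 (ATF3), 1.25 (CTH), 1.12 (CEBPB), 1.08 (SLC1A4) and 1.02 (JDP2). For HT-29 minus HCT-116 they were 1.49 (DDIT3), 1.02 (CTH), -1.12 (NUPR1), -1.17 (DDIT4), -1.34 (SLC7A5) and -1.44 (PYCR1). These comparisons share libraries. VLDLR and NUPR1 were under 1 TPM in sensitive HCT-116 under uracil. With a replicate number left out, the VLDLR difference between HCT-116 and DLD-1 lay between 2.05 and 3.02.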

How the results depend on the processing

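Counts of called members stayed within 1.5 times for all 26 comparisons under DESeq2, library size alone, no filter and only the compared groups, and for 22 of 26 under limma on log2(TPM + 1). The other 4 were 3 for HCT-116 under 5-FU, 6 for HT-29 under 5-FU, 2 for resistant minus sensitive HCT-116 and 7 for HT-29 minus DLD-1, and the cause was not tested. TRIB3 in HT-29 under 5-FU changed sign to 0.08 with library size alone, 0.16 with limma and lay between -0.08 and 0.06 with 1 library left out, 0.06 being without sensitive uracil replicate 2. PSPH between resistant and sensitive DLD-1 went from -0.01 to 0.01 with its copies. Over 169 member results, 933 of 1014 alternatives kept direction and side of the threshold, 78 lost the threshold, 1 gained it and 2 reversed. With library size alone the median of all genes under 5-FU was 0.111 in HCT-116, 0.192 in HT-29 and 0.115 in DLD-1. In the main fit it was 0.025, 0.035 and 0.015 in the same order. Replicate numbers did not pair samples (same-number correlations -0.0629 to 0.074), and with the replicate block the counts of calls were 18, 5 and 12 under 5-FU, as without it, and no count changed in the other comparisons. Leaving out 1 library gave 18 to 19, 5 to 5 and 10 to 12 members under 5-FU in the sensitive lines (DLD-1 first, HT-29 last), and 14 to 17, 3 to 6 and 8 to 12 for resistant minus sensitive, with the 3 reached without HCT-116 sensitive uracil replicate 1. Summing copies left 49 of 50 calls unchanged, CBS in HCT-116 being the exception. Depth limits CBS, ALDH1L2 and INHBE, which stayed under 1 TPM.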
